A study of Homo sapiens with 21 samples.

Results

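This account follows 39 genes of glycolysis and the hypoxia response through 7 lines of SUM149PT, a human inflammatory breast cancer cell line without estrogen and progesterone receptors. They were found by symbol through the Ensembl identifier of each row, 39 of the 60617 rows in the tables, and were kept as 2 groups: 23 glycolytic genes and 16 hypoxia genes. All 39 were among the 18632 genes that passed the low-count filter. The lines were 6 clones named M2, M1, EM1, EM2, EM3 and E, and the uncloned Parental line from which they came. Each clone is a single clone, so a difference between 2 clones cannot be told apart from a difference between the states their names stand for. Every line had 3 libraries of polyadenylated RNA sequenced from one end, and none was treated, so that no sample was exposed to low oxygen by the study's labels. Whether the 3 libraries of a line were grown separately is not stated, and each p-value reflects no more than library-to-library spread, which may be technical.

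Glycolysis converts glucose into pyruvate in the cytosol: hexokinase traps glucose, phosphofructokinase commits it to the pathway, and later steps yield ATP, after which lactate dehydrogenase and monocarboxylate transporters dispose of pyruvate as lactate. The hypoxia response rests on the hypoxia-inducible factors, whose alpha subunits (HIF1A and EPAS1) are marked for degradation by prolyl hydroxylases such as EGLN1 and EGLN3 as long as oxygen is present. Once stable, an alpha subunit pairs with ARNT on short DNA elements and raises transcription of genes for glycolysis, acid handling, vessel growth, collagen hydroxylation and mitochondrial removal; the alpha subunits are therefore regulated mostly as proteins, which these libraries did not measure.

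Library totals ran from 24602417 to 48149939 expected counts. Mean effective length separated the clone libraries into a short set (1957 to 2021 bases), which held all 3 E libraries and replicate 3 of each other clone, and a long set of the 10 others (2097 to 2213 bases). Parental libraries lay between (2034 to 2096 bases). The labels name no such sets. A fit with the set as a term was run for the clones, and the members' differences lost in it are listed under the dependence on processing. Within-set values below set replicate 3 of a clone against the 3 E libraries. Levels are in transcripts-per-million units (TPM), which correct for length, while fold changes were fitted to TMM-scaled counts. In clones against E the median gene lay 0.26 to 0.36 higher by TPM on the log2 scale, but 0.02 to 0.05 by scaled counts. Of the epithelial and mesenchymal markers, EPCAM averaged 0.13 TPM in M2 and 1.98 TPM in M1, against 150 to 361 TPM in the other lines, and VIM averaged 2102, 2664 and 706 to 1255 TPM in M2, M1 and the EM clones, against 13.8 TPM in E and 127 TPM in Parental. Other markers did not all follow the line names: FN1 averaged 680.0 TPM in M2, 4252 TPM in M1, 425, 892 and 597 TPM in EM1, EM2 and EM3 and 454 TPM in E, and SPARC averaged 0.11 TPM in EM1 against 1.10 TPM in E. Of the other epithelial markers, KRT8 averaged 525 TPM in M2 and 363 TPM in M1, against 1023 to 4568 TPM in the other lines. KRT18 averaged 136 and 66.4 TPM in M2 and M1, against 215 to 467 TPM. CDH1, KRT19 and KRT5 averaged 0.05, 0.30 and 0.36 TPM in M2 and 0.08, 9.43 and 33.2 TPM in M1, each below every other line mean. ESR1 stayed at or under 1.71 TPM and PGR at or under 0.02 TPM as line means. Of markers of blood and endothelial cells, CD3E, CDH5 and HBB had line means of 0.23 TPM or less, PTPRC reached 0.56 TPM (E, with 1 library at 1.37 TPM) and PECAM1 0.80 TPM (M1), while CD14 averaged 0.96 to 2.85 TPM in the other lines and 4.04 TPM in E; their part in the results was not tested. In bulk RNA, fewer cells of a kind and less RNA per cell cannot be told apart.

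Of the 39 genes, 30 differed among the 7 lines by edgeR's quasi-likelihood F-test at a Benjamini-Hochberg adjusted p under 0.05, namely 17 of 23 glycolytic genes and 13 of 16 hypoxia genes. Over all genes tested, 62.5% passed the same test, a smaller share than among the members. That difference was not tested. The genes that did not pass were HK1, GPI, PFKM, ALDOA, PGAM1 and LDHA in the glycolytic group and NDRG1, KDM3A and DDIT4 in the hypoxia group. M1 had the highest line mean for 9 of the 16 hypoxia genes (56.2%), against 21.3% of all genes tested, and for 7 of the 23 glycolytic genes (30.4%). E had the highest mean for none of the hypoxia genes and the lowest for 6 of them (37.5%, against 30.7% of all genes tested).

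**Figure D1:**
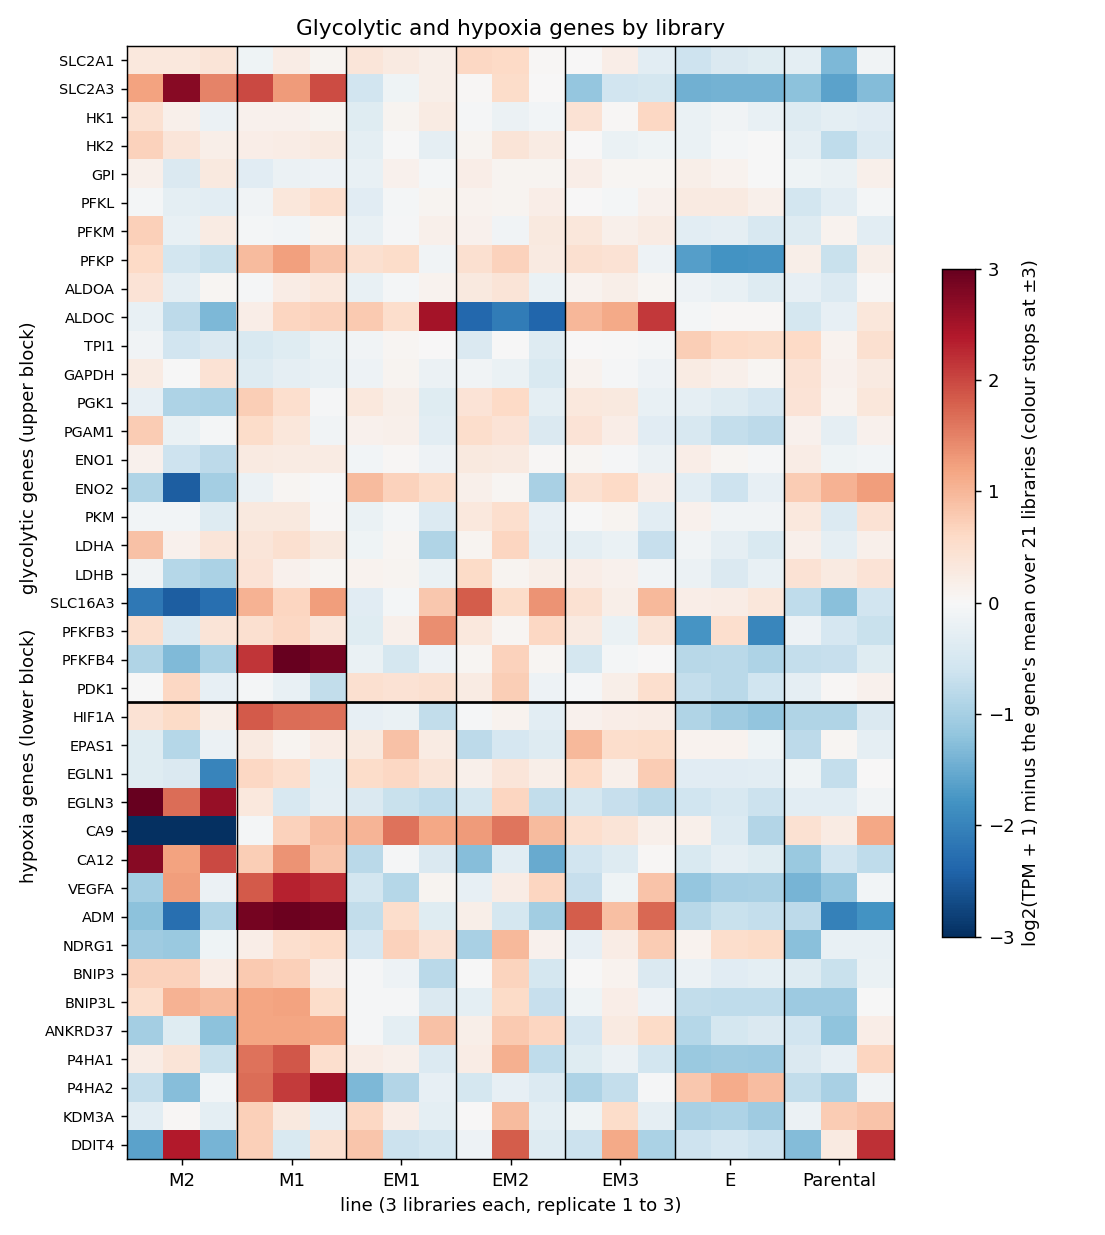
Each row is 1 of the 39 genes and each column 1 of the 21 libraries, with M2 at the left and Parental at the right; colour gives log2(TPM + 1) minus the gene's mean over the 21 libraries. The lower block of hypoxia genes is warmest in the 3 M1 columns, and CA9 is coldest in the 3 M2 columns.

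Of the glucose carriers, SLC2A3 RNA differed more between lines than SLC2A1 RNA. SLC2A1 (GLUT1), the ubiquitous glucose carrier, ran from 19.6 to 79.1 TPM over all 21 libraries and had a higher mean in M2 than in Parental (65.6 ± 1.89 against 36.2 ± 14.7 TPM, SD, n = 3 each; log2 fold change 0.82 ± 0.25, edgeR adjusted p = 0.0127), a call lost without M2 replicate 3 or Parental replicate 2 (edgeR adjusted p = 0.0514 to 0.0784). SLC2A3 (GLUT3), a carrier with high affinity for glucose, stood at 7.08, 22.2 and 8.94 TPM in M2 and 13, 7.57 and 12.8 TPM in M1. It reached 0.58 to 4.15 TPM in the EM clones, against 0.29, 0.32 and 0.31 TPM in E and 0.50, 0.15 and 0.42 TPM in Parental. Both M clones lay above every other library, and the fit gave log2 fold change 5.43 ± 0.49, edgeR adjusted p = 3.86e-08 for M2 over E and log2 fold change 5.16 ± 0.48, edgeR adjusted p = 1.95e-07 for M1 over E.

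The size of that difference depends on SLC2A3P1, a processed copy of SLC2A3 that took 0 to 498 of the expected counts per library. In E the copy was assigned 285, 262 and 202 counts, beside 33, 52 and 34 for SLC2A3 itself. Its counts followed the library sets: replicate 3 of the other clones had 166 to 498. In the long set, EM2 replicate 1 had 180 and all other libraries 0. With the counts of gene and copy added, the sum was 6.14 times higher in M2 than in E and 5.09 times higher in M1 than in E, as a ratio of mean CPM (39.6 ± 21.9 in M2, 32.8 ± 6.24 in M1 and 6.44 ± 1.22 in E, SD, n = 3 each). For the EM clones the sum gave ratios of 1.53, 1.79 and 1.01 over E for EM1, EM2 and EM3, with overlapping libraries in EM1 and EM3. In each EM clone the sum was highest in replicate 3, the short-set library. In EM1 it was 4.99, 4.83 and 19.8 CPM. The SLC2A3 calls of the EM clones are therefore uncertain, while the sums in all 6 M libraries remained above all 3 sums in E.

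The TPM of the 15 enzymes from hexokinase to pyruvate kinase, with LDHA and LDHB added, summed to 1.40% of all TPM in M2, 1.70% in M1, 1.46 to 1.65% in the EM clones, 1.49% in E and 1.73% in Parental, with an SD of 0.106 to 0.274 percentage points within lines. GAPDH, which makes the first high-energy phosphate, ranked 27th to 78th among all genes in the 21 libraries. PGK1, the first ATP-yielding step, had its best rank at 26 and its worst at 135.

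Phosphofructokinase, the committed step, changed its subunit mixture in E. PFKP, the platelet-type subunit, stood at 260.0, 117 and 108 TPM in M2, 329, 405 and 305 TPM in M1 and 154 to 276 TPM in the EM clones, against 54, 48.3 and 49.2 TPM in E and 195, 108 and 193 TPM in Parental. All 18 other libraries lay above the 3 E libraries. Against E the log2 fold changes were 1.08 ± 0.27 in M2 (edgeR adjusted p = 0.00282), 2.2 ± 0.28 in M1 (edgeR adjusted p = 7.96e-06) and 1.51 ± 0.28, 1.88 ± 0.28 and 1.43 ± 0.28 in EM1, EM2 and EM3 (SE; edgeR adjusted p = 0.00104, 0.000171 and 0.00146). These 5 comparisons share the E libraries. E also lay below Parental (log2 fold change -1.31 ± 0.27, edgeR adjusted p = 0.00557).

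The other subunits moved less. PFKL, the liver-type subunit, ran from 24.6 to 51.6 TPM and PFKM, the muscle-type subunit, from 25.7 to 59.9 TPM over all libraries. PFKP accordingly made up 66.5% ± 6.64 of the summed TPM of the 3 subunits in M2, 81.2% ± 3.44 in M1 and 71.5 to 75.1% in the EM clones, against 41.5% ± 1.76 in E and 71.8% ± 9.16 in Parental (SD, n = 3 each). The highest share in E was 42.6%, below the lowest share in any other line (60.1%).

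TPI1, which interconverts the triose phosphates, ran the other way. It stood at 1059, 769 and 851 TPM in M2, 839, 888 and 1000 TPM in M1 and 840.0 to 1195 TPM in the EM clones, against 1897, 1722 and 1667 TPM in E and 1720.0, 1223 and 1591 TPM in Parental. No library of the other 5 clones reached the lowest value of E or of Parental. It fell against E in M2 (log2 fold change -1.15 ± 0.18, edgeR adjusted p = 2.57e-05) and M1 (log2 fold change -1.16 ± 0.18, edgeR adjusted p = 4.92e-05), and fell by 0.87, 0.95 and 0.87 on the log2 scale in EM1, EM2 and EM3 (edgeR adjusted p = 0.0021, 0.00119 and 0.002).

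**Figure D2:**
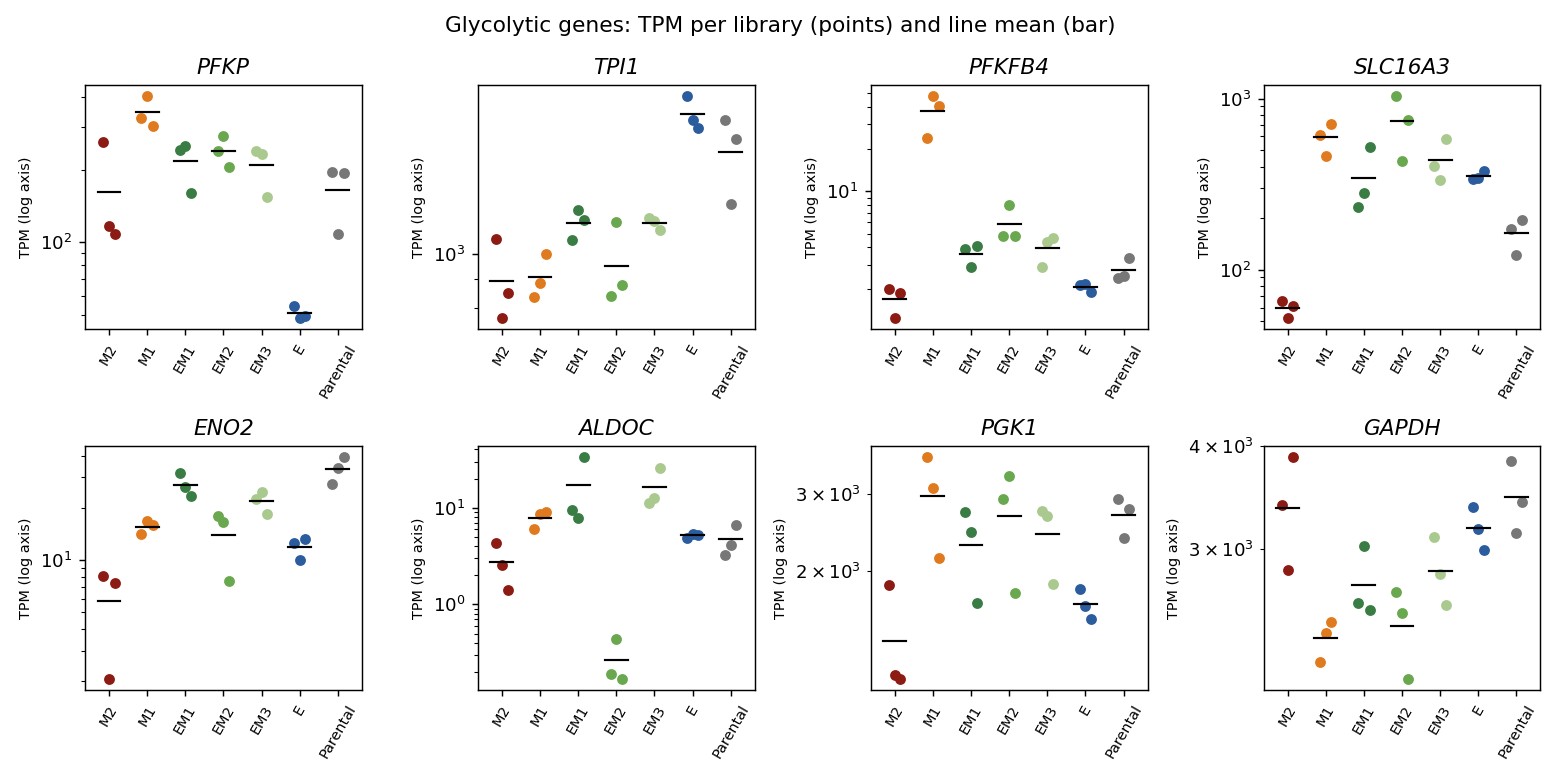
TPM of 8 glycolytic genes on a log axis, with 1 point per library and a bar at the line mean (n = 3), lines ordered from M2 to Parental. PFKP is lowest in all 3 E libraries, SLC16A3 in all 3 M2 libraries, ALDOC in all 3 EM2 libraries, and PFKFB4 is highest in all 3 M1 libraries.

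The short arm of chromosome 12 holds 5 members, TPI1 among them, here given by their positions in GRCh38 (GENCODE 29). GAPDH spans chr12:6533927-6538374, TPI1 chr12:6867119-6870948 and ENO2 chr12:6913745-6923698, while SLC2A3 lies at chr12:7919230-7936275 and LDHB at chr12:21635342-21757857. Against E, in M1, the log2 fold changes along the arm were -0.83 ± 0.22 for GAPDH, -1.16 ± 0.18 for TPI1, 0.00 ± 0.39 for ENO2, 5.16 ± 0.48 for SLC2A3 and 0.23 ± 0.22 for LDHB (SE). GAPDH and TPI1 passed the test as lower and SLC2A3 as higher (with the size of the SLC2A3 fold uncertain, as above), and ENO2, the member closest to TPI1, did not pass.

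Of the later enzymes, PGK1 stood at 1856, 1152 and 1131 TPM in M2 and 3641, 3093 and 2141 TPM in M1. All 3 M2 libraries lay below all 3 M1 libraries (log2 fold change -0.95 ± 0.18, edgeR adjusted p = 0.000295). ENO1, the common enolase, ran from 1446 to 2694 TPM in M2 and 2925 to 3003 TPM in M1. ENO2, the neuronal enolase, was far lower: 8.11, 2.07 and 7.37 TPM in M2 and 14.1, 16.8 and 16 TPM in M1, against 27.7, 34.2 and 39.5 TPM in Parental. M2 lay below both (log2 fold change -1.26 ± 0.39, edgeR adjusted p = 0.0155 against M1; log2 fold change -2.67 ± 0.41, edgeR adjusted p = 3.28e-05 against Parental). ENO2 supplied 0.312% of the enolase TPM in M2 and 0.527% in M1, against 1.37% in Parental.

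ALDOC, the brain-type aldolase, had the widest range of line means in the group. It was near 0 in EM2, at 0.19, 0.44 and 0.17 TPM, against 4.92, 5.32 and 5.27 TPM in E (log2 fold change -4.66 ± 0.62, edgeR adjusted p = 5.76e-05). EM1 and EM3 gave 9.48, 7.88 and 33.6 TPM and 11.2, 12.5 and 25.7 TPM, with replicate 3, the short-set library, highest in both. In M2 it stood at 4.28, 2.58 and 1.41 TPM and in M1 at 6.04, 8.60 and 8.97 TPM (log2 fold change -1.63 ± 0.52, edgeR adjusted p = 0.017), a call lost without M2 replicate 2 or 3 or M1 replicate 3 (edgeR adjusted p = 0.0579 to 0.0728).

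In the lactate branch, SLC16A3 set M2 apart. SLC16A3 (MCT4), the exporter that releases lactate from glycolytic cells, stood at 65.2, 52.1 and 60.9 TPM in M2 and 610.0, 462 and 707 TPM in M1. EM1 had 233, 281 and 518 TPM, EM2 1034, 434 and 752 TPM and EM3 405, 332 and 582 TPM, against 338, 342 and 375 TPM in E and 173, 122 and 196 TPM in Parental. Every M2 library lay below every other library. The difference was log2 fold change -3.58 ± 0.37, edgeR adjusted p = 3.32e-07 against M1, log2 fold change -3.19 ± 0.36, edgeR adjusted p = 8.04e-07 against E and log2 fold change -2.19 ± 0.35, edgeR adjusted p = 4.57e-05 against Parental.

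The share of LDHA in the lactate dehydrogenase subunits was highest in the same line. LDHA, the subunit that favours lactate formation, had 2733, 1629 and 1917 TPM in M2 and 1912, 2090.0 and 1826 TPM in M1, against 1400, 1235 and 1098 TPM in E. Its all-lines test did not pass. The LDHA call of M2 over E was lost with the library set as a term (edgeR adjusted p = 0.116) and without M2 replicate 1 (edgeR adjusted p = 0.16). In E, LDHB had 1536, 1290 and 1497 TPM, which overlapped M2. LDHB, the heart-type subunit, had 1608, 965 and 901 TPM in M2 and 2336, 1910.0 and 1810.0 TPM in M1, against 2357, 2086 and 2310.0 TPM in Parental (log2 fold change -1.37 ± 0.22, edgeR adjusted p = 5.5e-05 for M2 over Parental). LDHA made up 64.6% ± 2.98 of the summed TPM of both subunits in M2 and 49.2% ± 3.73 in M1, against 46.3% ± 3.51 in E and 40.1% ± 2.60 in Parental (SD, n = 3 each). The lowest M2 share (62.8%) exceeded the highest share in any other library (56.1%, in EM2).

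Among the regulators of flux, PFKFB4 was a gene of M1. PFKFB4 makes and degrades the sugar bisphosphate that activates phosphofructokinase, and is known to be induced by hypoxia. It stood at 2.01, 1.25 and 1.90 TPM in M2 and 23.8, 47.7 and 40.2 TPM in M1, against 2.15, 2.2 and 1.93 TPM in E, and at 2.42 to 7.98 TPM in the other 12 libraries. No other library came near the lowest M1 value. The test gave log2 fold change 3.98 ± 0.44, edgeR adjusted p = 1.66e-06 for M1 over E and log2 fold change -4.41 ± 0.45, edgeR adjusted p = 3.32e-07 for M2 over M1.

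PFKFB3, the kinase-dominant isoform of the same family, was called higher in all 5 clones against E on counts, but its TPM values overlapped. Its counts-per-million values (CPM, TMM-scaled) were 78.6, 36.0 and 93.2 in M2 and 83.1, 94.4 and 85.2 in M1, against 20.2, 19.2 and 17.5 in E. In TPM, E gave 5.07, 28.2 and 4.25, with an effective length from RSEM of 479 bases in E replicate 2, beside 2831 and 2819 bases in E replicates 1 and 3. The limma-trend test on TPM called none of EM1, EM2, EM3 and M2 against E (adjusted p = 0.0583, 0.0786, 0.102 and 0.0546), while M1 against E held in that test. PDK1, which blocks entry of pyruvate into the mitochondrial dehydrogenase, had 23.3, 36.7 and 19.6 TPM in M2, 22.4, 19.9 and 13.5 TPM in M1 and 20.9 to 39.4 TPM in the EM clones, against 13.8, 12.8 and 15 TPM in E. EM1 lay above E (log2 fold change 1.06 ± 0.26, edgeR adjusted p = 0.00776), also within the short set (log2 fold change 0.85). The M2 call over E (log2 fold change 0.82 ± 0.25, edgeR adjusted p = 0.0115) was lost with the library set as a term (edgeR adjusted p = 0.0669) and without M2 replicate 2 (edgeR adjusted p = 0.0964), and the fold within the short set was 0.21.

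In counts, 4 glycolytic genes were called higher and 3 lower in M1 than in E, where 36.2% of all genes tested were called in either direction. Of the 3 lower, GPI was lost with the library set as a term (edgeR adjusted p = 0.142). GPI was also lost without E replicate 1, 2 or 3 (edgeR adjusted p = 0.0823 to 0.119). In M2 against E the counts were 5 higher and 8 lower, where 51.3% of all genes were called. Of the higher, LDHA and PDK1 were lost with the library set as a term (edgeR adjusted p = 0.116 and 0.0669). Of the lower, ALDOC was lost in that fit (edgeR adjusted p = 0.339). By limma-trend on log2(TPM + 1), where the median gene lay 0.20 to 0.28 higher in the 5 clones than in E, the balance turned: 8 glycolytic genes were called higher and 5 lower in M2 than in E (28.8% and 19.6% of all genes), and 6 and 2 in M1 (24.3% and 11.6%). The median log2 fold change of the 23 genes was 0.09 in M1 and -0.17 in M2, beside 0.03 and 0.01 over all genes tested. EM1 had 4 glycolytic genes higher and 3 lower than E, where 17.9% of all genes were called, 9.84% higher and 8.09% lower. EM2 had 5 higher and 3 lower, where 13.9% of all genes were called, 6.95% in each direction. EM3 had 4 higher and 2 lower, where 17.3% of all genes were called, 9.36% higher and 7.96% lower. By limma-trend on TPM the counts were 6 higher and 1 lower in EM1 (12.7% and 4.41% of all genes), 6 and 2 in EM2 (9.71% and 3.93%) and 5 and 1 in EM3 (15.3% and 3.83%), while DESeq2's Wald test called 5 lower in EM1 and in EM3. The lower count in EM3 was also 1 without the low-count filter or with mean effective length as a term. Several of the EM calls rested on single libraries: the lower count in EM1 was 1 without E replicate 1 or without EM1 replicate 1, the higher count in EM2 was 3 without any 1 E library or EM2 replicate 2, and the lower count in EM3 was 4 without M2 replicate 3 and 1 without any of the 3 E libraries, EM1 replicate 2, EM2 replicates 1 and 2, EM3 replicates 1 and 2, M1 replicate 2, M2 replicate 1 and Parental replicate 3.

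The hypoxia genes are introduced here with the promoter sequences of 5 of the members whose levels separated M2 from M1. PFKFB4 among them is of the glycolytic group. Sequences came from the RefSeq table (GRCh38.p14). Each window runs from 250 bases before to 50 bases after the annotated start, 5′ to 3′ on the strand of the gene. Capitals mark the core of the hypoxia response element, ACGTG or GCGTG read on either strand (CACGT or CACGC on the printed strand); a CACGTG counts once for each strand. The windows are CA9 at chr9:35673678-35673977, plus strand; ADM at chr11:10304823-10305122, plus strand; ANKRD37 at chr4:185396591-185396890, plus strand; P4HA1 at chr10:73096817-73097116, minus strand; and PFKFB4 at chr3:48556754-48557053, minus strand.
CA9: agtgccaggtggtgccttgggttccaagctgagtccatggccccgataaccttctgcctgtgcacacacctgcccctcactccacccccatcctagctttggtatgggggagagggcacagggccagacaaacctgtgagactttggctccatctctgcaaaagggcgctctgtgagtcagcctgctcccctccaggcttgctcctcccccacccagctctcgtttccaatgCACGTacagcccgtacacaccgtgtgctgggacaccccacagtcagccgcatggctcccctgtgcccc
ADM: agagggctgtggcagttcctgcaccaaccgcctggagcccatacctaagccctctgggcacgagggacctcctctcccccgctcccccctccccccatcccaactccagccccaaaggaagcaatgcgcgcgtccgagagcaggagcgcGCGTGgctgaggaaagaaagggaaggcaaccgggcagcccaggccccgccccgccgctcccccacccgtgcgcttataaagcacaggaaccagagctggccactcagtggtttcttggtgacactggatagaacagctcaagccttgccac
ANKRD37: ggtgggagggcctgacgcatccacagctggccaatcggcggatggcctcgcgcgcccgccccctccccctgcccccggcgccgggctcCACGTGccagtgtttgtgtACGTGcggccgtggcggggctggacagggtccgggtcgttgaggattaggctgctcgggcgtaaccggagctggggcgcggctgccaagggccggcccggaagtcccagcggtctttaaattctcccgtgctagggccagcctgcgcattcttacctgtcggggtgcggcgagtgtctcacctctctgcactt
P4HA1: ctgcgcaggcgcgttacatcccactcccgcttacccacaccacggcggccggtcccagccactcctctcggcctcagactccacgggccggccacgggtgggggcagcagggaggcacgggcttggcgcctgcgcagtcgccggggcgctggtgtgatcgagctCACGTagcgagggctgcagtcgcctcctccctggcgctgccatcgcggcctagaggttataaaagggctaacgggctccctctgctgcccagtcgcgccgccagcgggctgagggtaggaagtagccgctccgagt
PFKFB4: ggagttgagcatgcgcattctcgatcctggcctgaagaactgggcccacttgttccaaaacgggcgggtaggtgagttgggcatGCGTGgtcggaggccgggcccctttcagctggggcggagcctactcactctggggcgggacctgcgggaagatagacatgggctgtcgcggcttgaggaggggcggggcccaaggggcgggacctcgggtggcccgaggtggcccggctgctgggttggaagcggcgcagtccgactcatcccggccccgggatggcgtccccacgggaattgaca

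CA9, P4HA1, ADM and PFKFB4 each hold 1 core in this window and ANKRD37 holds 3. A core stood in 12 of the 15 windows of the hypoxia genes (80%; 13 of 16 genes matched), in 31 of the 48 windows of the glycolytic genes (64.6%; 22 of 23 genes matched) and in 48.4% of all 35116 windows in the table. Several genes have overlapping windows from neighbouring starts, so windows are not independent. EGLN3 and P4HA2, whose levels also separated M2 from M1 but whose windows are not printed, hold no such letters in their windows. Matches describe sequence only, and no binding was measured.

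**Figure D3:**
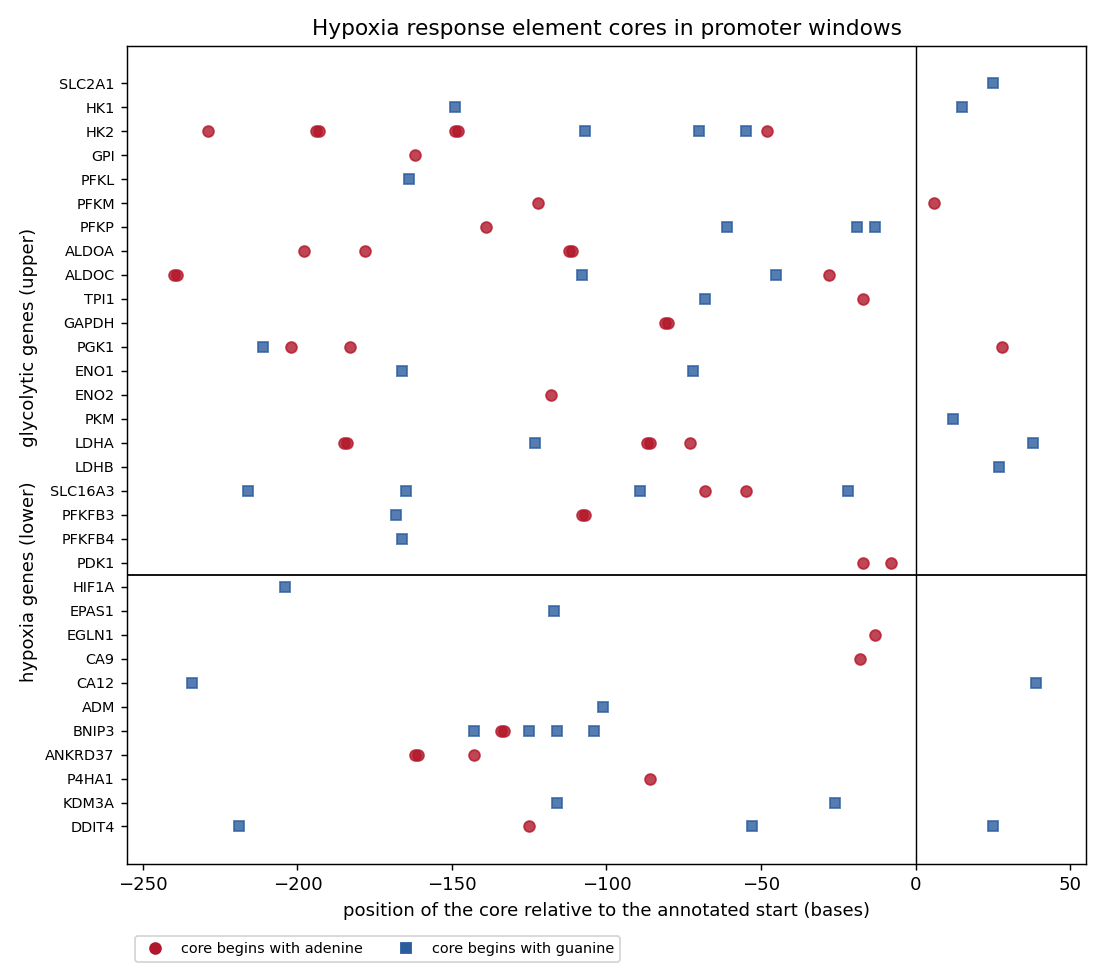
Position of each hypoxia response element core relative to the annotated start (0), for members with at least 1 core in a window from 250 bases before to 50 bases after it; windows of alternative starts of a gene share a row. Circles are cores that begin with A and squares cores that begin with G, read on the core's own strand.

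Of the factor genes, HIF1A differed chiefly in M1. HIF1A, the inducible alpha subunit, stood at 388, 425 and 322 TPM in M2 and 1027, 914 and 911 TPM in M1. The EM clones had 240.0, 248 and 172 TPM (EM1), 280.0, 309 and 229 TPM (EM2) and 316, 329 and 336 TPM (EM3), against 153, 136 and 125 TPM in E and 152, 152 and 212 TPM in Parental. The M1 libraries lay above all others and the E libraries below all other clones. M1 exceeded E by 2.97 ± 0.30 on the log2 scale (SE; edgeR adjusted p = 5.5e-07), and by 2.51 within the short set.

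M2 also exceeded E for HIF1A (log2 fold change 1.63 ± 0.29, edgeR adjusted p = 0.000123; 1.13 within the short set) and lay below M1 (log2 fold change -1.34 ± 0.29, edgeR adjusted p = 0.000939). EM3 exceeded E (log2 fold change 1.35 ± 0.29, edgeR adjusted p = 0.00311; 0.98 within the short set). In EM1 the call (log2 fold change 0.85 ± 0.28, edgeR adjusted p = 0.0441) came with a fold of 0.12 within the short set and was lost with the library set as a term (edgeR adjusted p = 0.116). EPAS1 (HIF2 alpha), the second alpha subunit, ran from 42.7 to 69.9 TPM in M2, 83.1 to 94.8 TPM in M1 and 113 to 154 TPM in EM3, against 71.8 to 84.1 TPM in E. It ran from 93.2 to 146 TPM in EM1 and 45.5 to 60.4 TPM in EM2, with the highest line mean in EM3 and the lowest in EM2. EM2 was called below E, but the call was lost without E replicate 1, 2 or 3 (edgeR adjusted p = 0.0749 to 0.117). HIF1A made up 86.5% ± 4.35 of the TPM of both alpha subunits in M2 and 91.4% ± 0.420 in M1, against 63.3% ± 1.41 in E (SD, n = 3 each).

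The prolyl hydroxylases mark the alpha subunits in the presence of oxygen and are themselves induced by the factors. EGLN3 was higher in M2 than in M1 and E, while EGLN1 was lower in M2 than in M1. EGLN3 stood at 17.2, 5.53 and 11.5 TPM in M2, against 1.55, 0.46 and 0.70 TPM in M1, 0.36, 0.46 and 0.31 TPM in E and 0.17 to 2.18 TPM in the other 12 libraries. Every M2 library lay above every other library, although the M2 libraries themselves ranged widely. The test gave log2 fold change 4.76 ± 0.73, edgeR adjusted p = 2.84e-05 for M2 over E and log2 fold change 4.33 ± 0.72, edgeR adjusted p = 8.18e-05 for M2 over M1. EGLN1, the main oxygen sensor, had 71, 67.7 and 22.6 TPM in M2 and 142, 132 and 74.5 TPM in M1, with replicate 3 lowest in both (log2 fold change -1.02 ± 0.30, edgeR adjusted p = 0.0114). In E it had 72.9, 72.7 and 73.2 TPM, and M2 was not called against E. Its line means were 133, 108 and 134 TPM in EM1, EM2 and EM3 and 77.55 TPM in Parental. EGLN3 made up 20.3% ± 13.1 of the TPM of both in M2 and 0.786% ± 0.389 in M1, against 0.514% ± 0.106 in E.

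**Figure D4:**
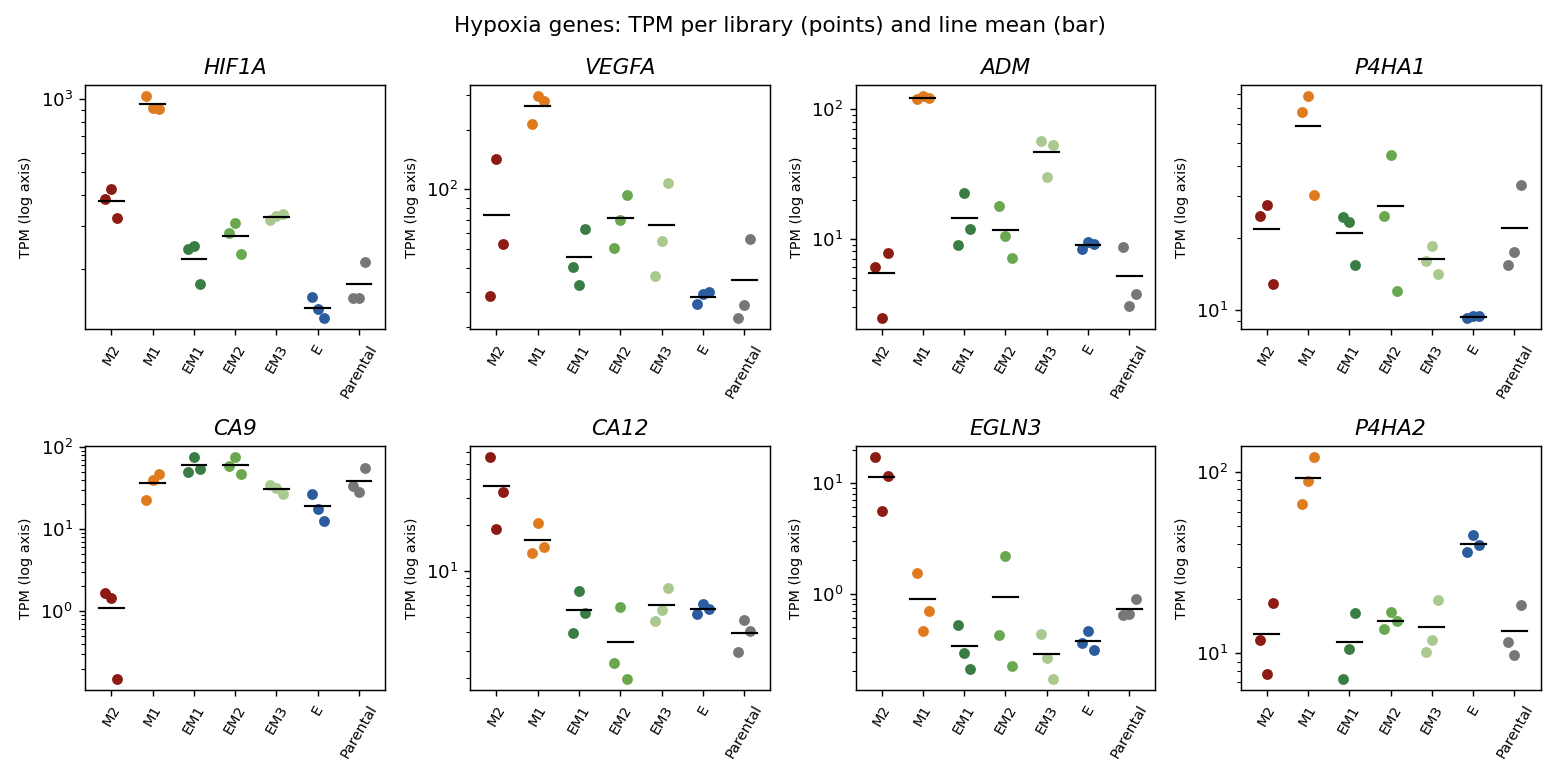
TPM of 8 hypoxia genes on a log axis, with 1 point per library and a bar at the line mean (n = 3), lines ordered from M2 to Parental. HIF1A, VEGFA and ADM are highest in the M1 libraries, CA9 is lowest and CA12 and EGLN3 are highest by mean in M2.

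Among secreted products, ADM (adrenomedullin, a vasodilator peptide) stood at 6.09, 2.44 and 7.82 TPM in M2 and 120.0, 126 and 122 TPM in M1, against 8.31, 9.43 and 9.14 TPM in E. M1 lay far above M2 and E, without overlap (log2 fold change 3.45 ± 0.52, edgeR adjusted p = 5.16e-05 for M1 over E; log2 fold change -4.39 ± 0.55, edgeR adjusted p = 3.48e-06 for M2 over M1). EM3 was the next highest line, at 57, 30 and 53.2 TPM (log2 fold change 2.04 ± 0.50, edgeR adjusted p = 0.00796 over E). VEGFA, the main vessel growth factor, stood at 28.8, 142 and 52.5 TPM in M2 and 214, 298 and 280.0 TPM in M1, against 26.1, 29.4 and 30 TPM in E. M1 exceeded E (log2 fold change 2.95 ± 0.54, edgeR adjusted p = 0.00031), while M2 had a single high library and did not pass against E (edgeR adjusted p = 0.0717).

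The carbonic anhydrases, membrane enzymes that handle acid at the cell surface, changed places in M2. CA9, a standard marker of hypoxic tumour cells, stood at 1.67, 1.45 and 0.15 TPM in M2 and 22.9, 39.1 and 46.4 TPM in M1, against 26.6, 17.5 and 12.4 TPM in E, and at 26.5 to 75.8 TPM in the other 12 libraries. M2 lay below every other library (log2 fold change -4.12 ± 0.52, edgeR adjusted p = 2.88e-06 for M2 over E; log2 fold change -4.92 ± 0.54, edgeR adjusted p = 6.63e-07 for M2 over M1). CA12 stood at 55.7, 18.8 and 32.9 TPM in M2 and 13.2, 20.7 and 14.3 TPM in M1, against 5.23, 6.09 and 5.68 TPM in E. M2 exceeded E (log2 fold change 2.27 ± 0.38, edgeR adjusted p = 7.42e-05), and the share of CA9 in the TPM of both was 3.51% ± 3.39 in M2 and 68.4% ± 7.03 in M1, against 75.5% ± 7.53 in E (SD, n = 3 each). In M1 the CA12 call over E (log2 fold change 1.11 ± 0.37, edgeR adjusted p = 0.0251) was lost without M1 replicate 2 or E replicate 1, 2 or 3 (edgeR adjusted p = 0.0578 to 0.103). CA9 averaged 59.7 ± 14.2 TPM in EM1 and 60.3 ± 13.9 TPM in EM2, against 18.9 ± 7.17 TPM in E (SD, n = 3 each). The tests gave log2 fold change 1.21 ± 0.45, edgeR adjusted p = 0.0685 for EM1 and log2 fold change 1.69 ± 0.46, edgeR adjusted p = 0.0176 for EM2, and the EM2 call was lost without EM2 replicate 2 or E replicate 2 or 3 (edgeR adjusted p = 0.0667 to 0.0818).

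Both collagen prolyl hydroxylase subunits had their highest line mean in M1, and they differed in the place of E among the other lines. For P4HA1, M1 replicate 3 (30.2 TPM) lay below EM2 replicate 2 (44.7 TPM) and Parental replicate 3 (33.2 TPM). P4HA1 stood at 24.8, 27.6 and 12.8 TPM in M2 and 67.2, 78.8 and 30.2 TPM in M1, against 9.22, 9.45 and 9.37 TPM in E, where all 3 libraries were below all 18 others. M1 exceeded E (log2 fold change 2.18 ± 0.33, edgeR adjusted p = 4.41e-05; 1.48 within the short set, where replicate 3 is the lowest M1 library). P4HA2 stood at 11.9, 7.73 and 18.9 TPM in M2, 66.8, 89 and 121 TPM in M1 and 7.24 to 19.7 TPM in the EM clones, against 36.2, 44.8 and 39.3 TPM in E. E and M1 were high, and M2 and the EM clones lay below E without overlap (log2 fold change -1.55 ± 0.33, edgeR adjusted p = 0.000791 for M2 over E), and the level fell by 1.75, 1.48 and 1.69 on the log2 scale in EM1, EM2 and EM3. The P4HA2 call of M1 over E (log2 fold change 1.11 ± 0.33, edgeR adjusted p = 0.0134) was lost without M1 replicate 3 or E replicate 1 (edgeR adjusted p = 0.051 to 0.0668). P4HA2 made up 38.0% ± 19.5 of the TPM of both subunits in M2 and 61.0% ± 16.6 in M1, against 81.0% ± 1.44 in E (SD, n = 3 each).

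Of the mitophagy receptors, which target mitochondria for removal, BNIP3L stood at 39.4, 56.2 and 53.1 TPM in M2 and 62.1, 63.2 and 39.6 TPM in M1, against 15.6, 15.5 and 15.4 TPM in E. Both M clones lay above E without overlap (log2 fold change 2.07 ± 0.44, edgeR adjusted p = 0.000705 for M2; log2 fold change 2.21 ± 0.44, edgeR adjusted p = 0.000724 for M1). BNIP3 had 43.6 ± 7.85 TPM in M2 and 45 ± 9.10 TPM in M1, against 24.3 ± 1.47 TPM in E (SD, n = 3 each), and its call against E was lost in both clones with the library set as a term (edgeR adjusted p = 0.182 in M2 and 0.0986 in M1). ANKRD37, a small hypoxia-induced ankyrin repeat gene, stood at 5.41, 9.13 and 4.54 TPM in M2 and 28.5, 28.8 and 28.1 TPM in M1, against 6.21, 8.03 and 8.75 TPM in E. M1 exceeded E (log2 fold change 1.55 ± 0.39, edgeR adjusted p = 0.00452), and M2 lay below M1 (log2 fold change -2.14 ± 0.40, edgeR adjusted p = 0.000294).

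KDM3A, a histone demethylase, had 29 ± 10 TPM in M1, against 11.3 ± 0.54 TPM in E; the call (log2 fold change 1.24 ± 0.37, edgeR adjusted p = 0.0135) was lost with the library set as a term (edgeR adjusted p = 0.07). DDIT4, an inhibitor of mTORC1 signalling, varied more within lines than between them: 56.3, 895 and 65.1 TPM in M2 and 68.9, 209 and 788 TPM in Parental, against 112, 121 and 111 TPM in E. Its biological coefficient of variation, 0.71, stood at the 94.8th percentile of the genes tested, and the all-lines test did not pass (edgeR adjusted p = 0.69). The median coefficient was 0.22 for the glycolytic genes and 0.33 for the hypoxia genes, beside 0.30 for all genes tested.

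In counts, 10 of 16 hypoxia genes were called higher and none lower in M1 than in E, where 18.1% of all genes were called higher. The 10 were HIF1A, CA12, VEGFA, ADM, BNIP3, BNIP3L, ANKRD37, P4HA1, P4HA2 and KDM3A. Their group's median log2 fold change was 1.11, beside 0.03 over all genes tested. Of the 10, BNIP3 and KDM3A were lost with the library set as a term (edgeR adjusted p = 0.0986 and 0.07). CA12, BNIP3, P4HA2 and KDM3A were each lost in at least 1 fit that left out a library. In M2 against E, 6 were called higher and 3 lower, where 24.6% of all genes were called higher and 26.8% lower, with a median of 0.75 beside 0.01. The 3 lower in M2 were CA9, NDRG1 and P4HA2. The NDRG1 call was lost without M2 replicate 1 or 2 (edgeR adjusted p = 0.0513 and 0.0528). Of the 6 higher in M2, P4HA1 and BNIP3 were lost with the library set as a term (edgeR adjusted p = 0.171 and 0.182). The EM clones gave 2 higher and 1 lower (EM1), 4 higher and 2 lower (EM2), and 2 higher and 1 lower (EM3), where 9.84% and 8.09%, 6.95% and 6.95%, and 9.36% and 7.96% of all genes were called higher and lower, with medians of 0.39, 1.00 and 0.52 beside 0.04, 0.01 and 0.03 over all genes. Without the low-count filter the higher counts were 4, 7 and 5 in EM1, EM2 and EM3. The higher count in EM1 fell to 0 when the fit included the library set or mean effective length, and was 1 with DESeq2's size factors. It was also 0 when the fit left out any of Parental replicates 2 and 3, EM3 replicate 1, M1 replicate 2, EM2 replicate 1, EM1 replicates 1 and 2 and the 3 E libraries, and 1 without EM3 replicate 2, M1 replicate 1 or Parental replicate 1. In EM2 the higher count was 0 without E replicate 2 or 3 or EM2 replicate 2 and 2 without E replicate 1 or EM2 replicate 1. The lower count in EM2 was 1 without any of the 3 E libraries, EM2 replicates 1 and 3, EM3 replicate 2 and M1 replicates 1 and 2, and that in M2 was 5 without M2 replicate 3.

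M2 and M1, the 2 clones with the least EPCAM, were set against each other directly. Of the 39 genes, 3 were called higher and 18 lower in M2 than in M1, where 41.2% of all genes were called in either direction, 19.0% higher and 22.2% lower. In the hypoxia group 10 of 16 were lower and 2 higher, with a median log2 fold change of -1.05 beside -0.02 over all genes tested. The 2 higher were EGLN3 and CA12, and the CA12 libraries overlapped; its call was lost without M2 replicate 1 or M1 replicate 1 (edgeR adjusted p = 0.0701 to 0.0979). In the glycolytic group 8 of 23 were lower and GAPDH was higher, with a median of -0.32. GAPDH stood at 3387, 2825 and 3879 TPM in M2, against 2188, 2375 and 2447 TPM in M1 (log2 fold change 0.66 ± 0.22, edgeR adjusted p = 0.0209), a call lost without M2 replicate 3 or M1 replicate 1 or 2 (edgeR adjusted p = 0.0526 to 0.165). The lower glycolytic count was 5 without M2 replicate 2 or M2 replicate 3, and the higher count was 2 without M2 replicate 2.

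**Figure D5:**
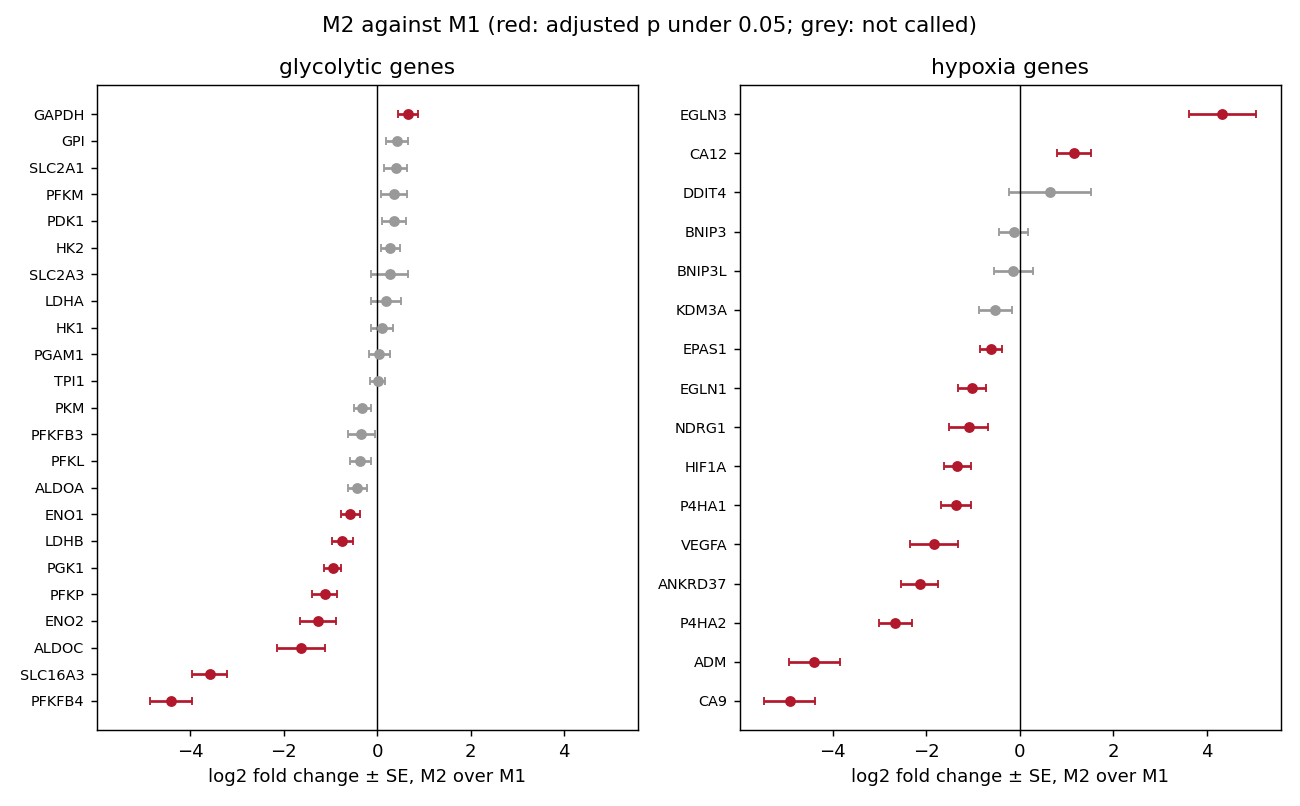
Log2 fold change of M2 over M1 with its standard error, for the 23 glycolytic genes at left and the 16 hypoxia genes at right, sorted by size; red points passed the test (edgeR adjusted p under 0.05). EGLN3 lies farthest right, and CA9, PFKFB4, ADM and SLC16A3 lie farthest left.

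Both clones have 2 long-set libraries and 1 short-set library, so the sets are balanced in this comparison. For the 4 largest decreases and for EGLN3, no M2 library overlapped an M1 library in TPM. The sign within each set was thus fixed beforehand and tests nothing. The folds by set are given for their size only, and those of the short set compare 1 library of each clone. CA9 gave log2 fold changes of -7.80 in the short set and -4.16 in the long set, PFKFB4 -4.12 and -4.66, ADM -3.90 and -4.79, and SLC16A3 -3.52 and -3.61. EGLN3 was higher in M2 by 4.84 in the short set and 4.09 in the long set.

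Against the uncloned line, E differed in few members: 3 were called higher and 5 lower in E than in Parental, where 10.9% of all genes were called, 5.02% higher and 5.93% lower. PFKP (above) and P4HA2, at 36.2, 44.8 and 39.3 TPM in E and 11.6, 9.75 and 18.5 TPM in Parental (log2 fold change 1.61 ± 0.33, edgeR adjusted p = 0.00536), were the 2 calls that held under every other setting and with every library left out. The 8 calls were 4, 3 and 2 without E replicate 1, 2 or 3, and 4 without Parental replicate 2 or 3.

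M1 had 15 members higher and 4 lower than Parental, where 27.1% of all genes were called, 13.1% higher and 14.0% lower. In the hypoxia group 9 of 16 were higher and none lower, with a median log2 fold change of 1.22 beside -0.02. HIF1A rose by 2.53 ± 0.30 (SE; edgeR adjusted p = 3.55e-06), ADM by 4.39 ± 0.55 (edgeR adjusted p = 7.55e-06) and PFKFB4 by 3.79 ± 0.44 (edgeR adjusted p = 3.29e-06). The higher glycolytic count of 6 was 3 without M1 replicate 2, Parental replicate 2 or Parental replicate 3, and the lower count of 4 was 2 without M1 replicate 1 or Parental replicate 1.

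M2 had 8 members higher and 6 lower than Parental, where 46.0% of all genes were called, 21.3% higher and 24.7% lower. Higher were SLC2A1, SLC2A3 and HK2 in the glycolytic group and HIF1A, EGLN3, CA12, BNIP3 and BNIP3L in the hypoxia group. Lower were TPI1, PGK1, ENO2, LDHB and SLC16A3 in the glycolytic group and CA9 in the hypoxia group. HK2, the inducible hexokinase, stood at 28.1, 22.2 and 19.4 TPM in M2, against 13.8, 9.60 and 12.4 TPM in Parental (log2 fold change 0.89 ± 0.21, edgeR adjusted p = 0.0017). HK1, the constitutive hexokinase, supplied 81.5% of the TPM of both in M2 and 83.1% in M1, against 85.7% in Parental. The lower count in the hypoxia group was 2 without M2 replicate 2. These comparisons share the Parental libraries, whose mean effective lengths lie between the sets.

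Other genes of the pathways were read from lists chosen with earlier results of these data known. Of 10 tested oxygen-sensing genes, 4 were called higher and 2 lower in M1 than in E, and 2 higher and 2 lower in M2 than in E. For these and the next lists the shares over all genes were 18.1% in each direction in M1 against E, and 24.6% higher and 26.8% lower in M2 against E. The M2 counts of the oxygen-sensing genes lay near or below the background. ARNT2, a partner of the alpha subunits, averaged 0.20 TPM in M2 and 5.13 TPM in M1, against 1.00 TPM in E. It was higher in M1 than in E (log2 fold change 2.51 ± 0.52, edgeR adjusted p = 0.000931) and lower in M2 than in M1 (-6.13 ± 0.63, edgeR adjusted p = 2.98e-07). CUL2, the scaffold of the ligase that degrades the alpha subunits, averaged 53.1 TPM in M2, 88.1 TPM in M1 and 66.4 to 72.9 TPM in the EM clones, against 24.9 TPM in E.

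Of 15 genes around pyruvate, 1 was called higher and 6 lower in M2 than in E, and 2 higher and 2 lower in M1 than in E, the M1 counts being near the background of 18.1% in each direction. In M2 the 6 lower were a larger share than the 26.8% of all genes, and the 1 higher a smaller share than 24.6%. PDK3, an inhibitor of pyruvate dehydrogenase, averaged 0.09 TPM in M2 and 4.34 TPM in M1, against 4.84 TPM in E (M2 over E: log2 fold change -6.43 ± 0.38, edgeR adjusted p = 1.39e-10). DLAT, a core subunit of pyruvate dehydrogenase, averaged 18.3 TPM in M2 and 89.2 TPM in M1, against 38.7 TPM in E. It was lower in M2 (-1.28 ± 0.21, edgeR adjusted p = 5.5e-05) and higher in M1 (0.90 ± 0.21, edgeR adjusted p = 0.00225) than in E.

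Of 20 further hypoxia-induced genes, 3 were called higher and 4 lower in M1 than in E, in shares near the background of 18.1% in each direction. In M2, 7 were called higher and 5 lower than in E. The 7 higher were a larger share than the 24.6% of all genes, and the 5 lower were near the background of 26.8%. The median log2 fold change of the 20 was 0.37 in M1 and 0.39 in M2, beside 0.03 and 0.01 over all genes tested. In M1, STC2, a secreted glycoprotein, averaged 111 TPM against 14.8 TPM in E (2.67 ± 0.64, edgeR adjusted p = 0.00331), while FAM162A, a mitochondrial protein, averaged 43.6 TPM against 82.3 TPM in E (-1.31 ± 0.15, edgeR adjusted p = 2.84e-06) and HILPDA, a lipid droplet protein, 7.77 TPM against 18.2 TPM in E (-1.59 ± 0.25, edgeR adjusted p = 6.67e-05). In M2, AK4, a mitochondrial adenylate kinase, averaged 1.11 TPM against 42.8 TPM in E (-4.73 ± 0.44, edgeR adjusted p = 5.46e-08).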

How the data were processed

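The deposited data were 21 gene tables of RSEM, 1 per library, with 60617 rows each. Per the submitters' processing notes, bcl2fastq 2.20.0.422, cutadapt 2.4, STAR 2.7.2b and RSEM 1.3.2 were used with hg38; the annotation release and the strand setting are not given in the sources used here. Per the file headers, the authors deposited an expected count, a TPM and an effective length (bases) per gene. Expected counts were whole for most genes, with 7.44 to 8.61% of values in a library not whole, and were rounded. RSEM shares out reads that fit several genes, so a gene with a near-identical copy has uncertain counts. No table held columns of other samples. Symbols were matched by Ensembl identifier for 60596 rows, and GENCODE 29 gave positions for 58542.

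The counts of all 21 libraries entered a single robust quasi-likelihood fit (edgeR 4.0.16 under R 4.3.3) with TMM scaling, a mean for every line and edgeR's filter on low counts, which left 14 residual degrees of freedom and a common coefficient of variation of 0.34. A gene was called at a Benjamini-Hochberg adjusted p under 0.05 over the 18632 genes of a comparison; there were 9 comparisons of 2 lines and 1 test over all 7. Alternatives were no low-count filter, DESeq2 1.42.0 (size factors; Wald test), limma-trend (limma 3.58.1) on log2(TPM + 1) with a mean TPM of at least 1, the replicate number as a block, the mean effective length as a term, the library set as a term, each library left out in turn and CPM for levels. The short set alone and the long set alone were chosen after seeing the data.

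Values in every library are given for called members with the largest range of line means, up to 8 per group, and for pairs of related enzymes; genes of the other lists are named only where called without overlap. Some genes of these lists are not reported here. The members, lists and sequences shown were chosen with earlier results of these data known. Promoters came from RefSeq (GRCh38.p14); those of SLC2A3, VEGFA, NDRG1 and BNIP3L were not used here. Figures were drawn in matplotlib 3.10.9 and tables built in pandas 2.3.3 with numpy 2.4.6 (Python 3.11.15).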

Additional observations from a re-analysis of the deposited data

Results flagged for a closer look

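The effects of M2 and M1 against E differed in 21 of the 39 genes, as tested by M2 over M1 in the edgeR fit; values are log2 fold changes of M2 over M1. In the hypoxia group the difference was -1.34 for HIF1A, -0.61 for EPAS1, -1.02 for EGLN1, 4.33 for EGLN3 among the factors and hydroxylases. Among induced genes it was -4.92 for CA9, 1.16 for CA12, -1.83 for VEGFA, -4.39 for ADM, -1.09 for NDRG1, -2.14 for ANKRD37, -1.36 for P4HA1, -2.66 for P4HA2. In the glycolytic group it was -1.12 for PFKP, -1.63 for ALDOC, 0.66 for GAPDH, -0.95 for PGK1, -0.57 for ENO1, -1.26 for ENO2, -0.74 for LDHB, -3.58 for SLC16A3, -4.41 for PFKFB4. Of these calls, NDRG1 was lost in all but 7, EPAS1 in all but 9 and ENO1 in all but 12 of the 21 fits that left out 1 library; NDRG1 was also lost with DESeq2's size factors, and EPAS1 and ENO1 without the low-count filter. LDHB was lost without M2 replicate 2 or 3 (edgeR adjusted p = 0.0507 and 0.0533). The share of all genes that passed the same test was 41.2%.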

How the results depend on the processing

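Of 134 calls of members in the 9 comparisons, 81 held under every alternative chosen at the outset and with every library left out, and no call changed its direction. With the library set as a term, 81 calls in comparisons between clones held and 12 were lost. Those lost, all against E, were HIF1A and KDM3A in EM1, P4HA1 and KDM3A in EM2, and GPI, BNIP3 and KDM3A in M1. In M2 they were ALDOC, LDHA, PDK1, BNIP3 and P4HA1. Leaving out 1 library at a time gave 25 to 31 members over all 7 lines (30 in the full fit), 6 to 12 for EM1 (10), 6 to 15 for EM2 (14), 7 to 11 for EM3 (9), 13 to 18 for M1 (17) and 18 to 24 for M2 (22) against E, 17 to 21 for M2 against M1 (21), and 2 to 10 for E (8), 14 to 20 for M1 (19) and 13 to 16 for M2 (14) against Parental. Without the low-count filter 15 members were called in E against Parental. The short set alone, with 1 library of each other clone assumed to vary like E, called 29, 25, 30, 26 and 34 members in EM1, EM2, EM3, M1 and M2 against E, on 2 residual degrees of freedom; that fit called 42.1%, 35.7%, 43.3%, 55.7% and 70.5% of all genes, so the counts say nothing particular to the members. The long set alone called 13 in M2 against M1.

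Libraries of different lines with the same replicate number were not treated as paired. Their deviations from the line means correlated with a median of 0.23 (-0.42 to 0.92), above 0.1 in 36 of 63 cases, but in no comparison for all 3 numbers, and for 14 of 21 libraries the closest match carried the same number. With the replicate block, members called were 33 over all lines, 10, 16, 11, 19 and 25 in EM1, EM2, EM3, M1 and M2 against E, 21 in M2 against M1, and 11, 20 and 16 in E, M1 and M2 against Parental.

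Limits are that E lies wholly in the short set, that the genes with few counts (ALDOC, CA9 and EGLN3, with 10 to 12 counts in their lowest libraries) have uncertain folds, and that RNA levels do not give HIF1A protein or flux.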

Other observations

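Genes outside the 39 filled in further steps of the same pathways. PFKFB2, another isoform of the bifunctional enzyme that sets the activator of phosphofructokinase, averaged 2.66 TPM in M2, 3.28 TPM in M1 and 5.29 TPM in EM2, against 12.3 TPM in E (log2 fold changes -2.65 ± 0.21, -2.07 ± 0.20 and -1.34 ± 0.20, SE; edgeR adjusted p = 6.43e-09, 3.39e-07 and 0.000171). ENO3, the muscle enolase, averaged 1.41 TPM in M2, against 11.4 TPM in M1 (-2.87 ± 0.31, edgeR adjusted p = 5.62e-07). HKDC1, a hexokinase-like gene, averaged 2.72 TPM in EM1 and 4.36 TPM in EM3, against 0.66 TPM in E (1.88 ± 0.39 and 2.62 ± 0.40, edgeR adjusted p = 0.00294 and 0.000226). Of the 16 isoenzymes and regulators on that list, 9 passed the low-count filter, and 5 of the 9 were called lower and none higher in M2 than in E, where 26.8% of all genes were called lower and 24.6% higher.

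PPP1R3C, which targets a phosphatase to glycogen and is known to be induced by hypoxia, averaged 20.4 TPM in M2, against 0.04 TPM in M1 and 0.05 TPM in E (M2 over M1: 8.94 ± 0.77, edgeR adjusted p = 9.42e-08). GBE1, the glycogen branching enzyme, averaged 73.2 TPM in M2, against 22.3 TPM in E (1.49 ± 0.25, edgeR adjusted p = 6.53e-05). TFRC, the transferrin receptor, averaged 259 TPM in EM1 and 240 TPM in EM3, against 53.3 TPM in E (2.18 ± 0.39 and 2.10 ± 0.39, edgeR adjusted p = 0.000818 and 0.00108).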
